A study of Mus musculus with 9 samples.

Results

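The oxidative phosphorylation genes of mouse bone marrow-derived macrophages were described across 9 RNA-seq libraries, with the genes of the nucleus set beside those of mitochondrial DNA. Members were chosen by name: symbols that start with Nduf and a subunit letter and number, Sdha to Sdhd, and symbols that start with Uqcr, Cox4 to Cox8, Atp5 or mt-. These patterns matched 82 genes of the table, of which 79 were nuclear and 3 mitochondrially encoded. A further 12 mitochondrial mRNAs, which the table lists under symbols without the prefix (ND1, COX1, CYTB and the like), were added by their GENCODE names, so that 94 of 13593 genes were followed. The nuclear members were 36 of complex I, 4 of complex II, 8 of complex III, 14 of complex IV and 17 of complex V. The mitochondrially encoded members were 7 mRNAs of complex I, 1 of complex III, 3 of complex IV and 1 of complex V, 2 ribosomal RNAs and 1 transfer RNA.

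Marrow of wild-type C57BL/6 mice aged 6 weeks was grown into macrophages for 7 days in medium with 15% supernatant of L929 fibroblasts, a source of macrophage growth factor. They were then exposed for 4 h to 4 nM of CX3CL1, of CCL26 or of BSA (bovine serum albumin), which served as the protein control. Both chemokines bind the receptor CX3CR1, and the question named in the title is how the responses to the 2 ligands differ. Each group had 3 libraries, and since the labels do not say that these came from separate animals or cultures, p-values measure the spread between libraries, which may be technical.

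Oxidative phosphorylation passes electrons along complexes I to IV of the inner mitochondrial membrane to oxygen, and complex V uses the proton gradient this builds to make ATP. Complexes I, III, IV and V hold subunits from both genomes, so the nucleus and the mitochondrion have to supply them together, while complex II is encoded in the nucleus alone and also serves the citric acid cycle. In macrophages the chain is known to be adjusted during activation, when succinate oxidation at complex II and oxidant production at complex I become part of the inflammatory response.

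Counts per library ran from 16923982 to 23198324. CX3CL1 replicate 1 stood apart: 1193 genes had no count in it, against 80 to 170 in the other 8 libraries, and its mean correlation with the others was 0.922, against 0.981 to 0.984. Every comparison was therefore made in a fit of all 9 libraries, which tested 12915 genes, and again in a fit of 8 libraries without it, which tested 13245. The common dispersion, the squared relative spread between replicates, was 0.0765 with it and 0.00598 without it. All 94 members passed the filter on low counts in both fits. The defining markers of macrophages were abundant, with all 16 on the list in the table and a summed level of 35010 to 35630 CPM in BSA and of 51430 CPM in CX3CL1 replicate 1 (CPM, read counts scaled to the library size). Of the markers of other cell types, 11 of 14 for granulocytes summed to 134 to 141 CPM in BSA, 3 of 6 for B cells to 98.4 to 108.1 CPM, and 0 of 8 for erythroid cells and 0 of 7 for mast cells and basophils were in the table.

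Several mitochondrial mRNAs have near-identical copies in the nuclear genome, and this bore on which of their levels could be read. On chromosome 1 of GRCm38, a set of pseudogenes repeats a stretch of mitochondrial DNA on the minus strand, and 3 pairs are shown because they span the range from identical to 1 differing base. Capitals mark the base that differs, and each run of 60 bases is written 5′ to 3′ along the transcript, from the GENCODE M21 transcript sequences. The mt-Co1 stretch lies at chrM:6390-6449 and its copy Gm29216 at chr1:24616129-24616188. The mt-Nd3 stretch lies at chrM:9459-9518 and its copy Gm28438 at chr1:24613060-24613119. The mt-Co2 stretch lies at chrM:7323-7382 and its copy Gm28661 at chr1:24615196-24615255.
mt-Co1: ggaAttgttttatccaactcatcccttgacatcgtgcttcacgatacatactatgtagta
Gm29216: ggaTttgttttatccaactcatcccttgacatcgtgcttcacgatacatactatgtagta
mt-Nd3: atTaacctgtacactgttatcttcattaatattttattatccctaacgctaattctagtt
Gm28438: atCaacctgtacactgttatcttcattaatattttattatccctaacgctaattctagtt
mt-Co2: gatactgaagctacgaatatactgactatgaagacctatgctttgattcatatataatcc
Gm28661: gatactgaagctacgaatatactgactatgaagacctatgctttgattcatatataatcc

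Over their whole alignments, mt-Co1 and Gm29216 shared 482 of 483 bases, with the substitution A1066T counted from the start of mt-Co1. The mt-Nd3 copy shared 344 of 345 bases, with T3C, and the copies of mt-Co2, mt-Co3, mt-Atp6 and mt-Nd4 shared all 681, 783, 678 and 876 aligned bases. Matches of at least 98% identity over 100 bases or more covered 99.0% to 99.9% of mt-Nd3, mt-Nd4l, mt-Co2, mt-Co3 and mt-Atp6, 63.6% of mt-Nd4 and 31.3% of mt-Co1. They covered 0% of mt-Nd1, mt-Nd2, mt-Nd5, mt-Nd6, mt-Cytb and both ribosomal RNAs. The table gave mt-Co1 1073497 counts over the 9 libraries and mt-Co2 12427, although both encode subunits of the same enzyme, and it gave the copies Gm29216 4558 counts and Gm28661 6390. Levels of the 5 fully copied mRNAs are thus uncertain, and the 6 mRNAs covered by less than 50% (mt-Nd1, mt-Nd2, mt-Nd5, mt-Nd6, mt-Cytb and mt-Co1) were also summarised alone. mt-Nd6 and the transfer RNA mt-Tp lie on the strand opposite the other mitochondrial members, and the end of mt-Nd6 overlaps that of mt-Nd5. The column headers carry the name of the gene counts that STAR itself writes, while the processing notes also name featureCounts. No source used here states whether strand was used in counting or how reads with several matches were placed.

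Per kilobase of transcript, 3 mitochondrial mRNAs stood above every nuclear member, while the others lay below Atp5b, the highest nuclear member. As a mean of the 8 libraries, mt-Co1, the catalytic subunit of complex IV, reached 4189 CPM per kb. Cytochrome b of complex III (mt-Cytb) reached 862 and mt-Nd1, a membrane subunit of complex I, 789 CPM per kb. The highest nuclear member of each complex was Atp5b, which encodes the catalytic beta subunit of complex V, at 478 CPM per kb, Cox4i1 of complex IV at 353, Uqcr10 of complex III at 129, Ndufa4 at 104 and Sdha of complex II at 89.2. Ndufa4 is counted here under complex I by its symbol and is also described as a subunit of complex IV. Among tissue isoforms of complex IV, the widely expressed forms Cox6a1 (310 CPM per kb), Cox7a2 (96.3) and Cox8a (191) were far above the heart and muscle forms Cox6a2 (7.45) and Cox7a1 (2.22) and the lung form Cox4i2 (0.912).

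**Figure D1:**
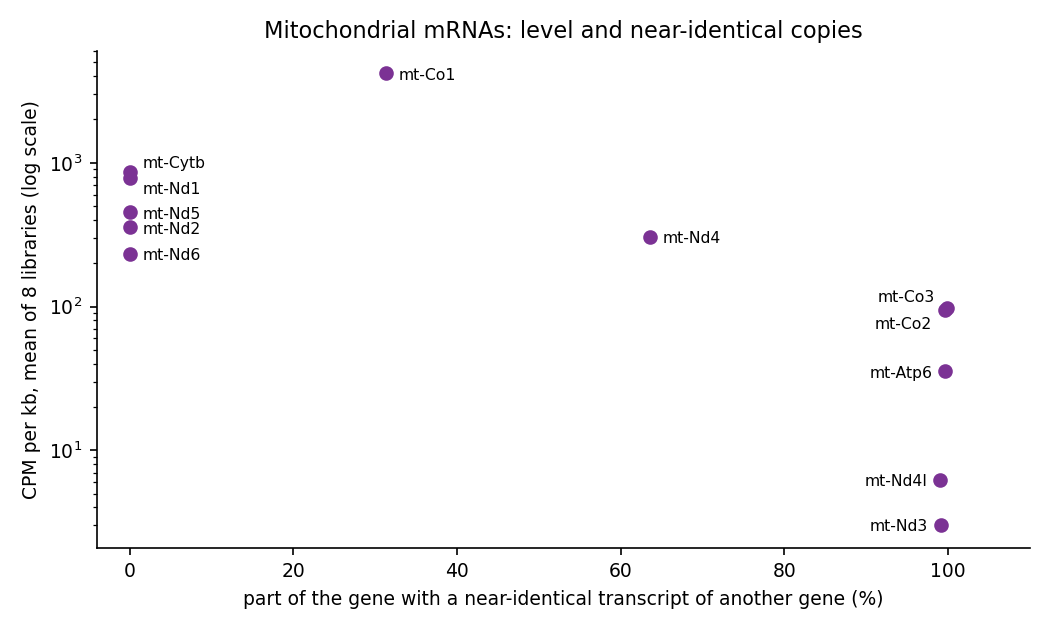
Level per kilobase (CPM per kb, mean of the 8 libraries without CX3CL1 replicate 1, log scale) of the 12 mitochondrial mRNAs against the percentage of each gene matched at 98% identity or more by a transcript of another gene. The 5 mRNAs matched at 99.0% or more all lie under 100 CPM per kb, and the 5 without a match lie between 232 and 862.

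Tests are given for both fits. In the fit of all 9 libraries, no nuclear or mitochondrially encoded member passed the test in any comparison (edgeR quasi-likelihood test, Benjamini-Hochberg adjustment over all tested genes, threshold 0.05). Over all genes 0.434% were called for CCL26 against BSA, 0.41% for CCL26 against CX3CL1 and 0.0% for CX3CL1 against BSA. At an unadjusted p under 0.05 the fit held 2 mitochondrial and 0 nuclear members lower in CCL26 than in BSA, 6 and 34 lower in CCL26 than in CX3CL1, and 1 and 7 higher in CX3CL1 than in BSA. DESeq2 and limma-voom on the 9 libraries also called 0 members after adjustment, with 4 and 2 mitochondrial members at an unadjusted p under 0.05 for CCL26 against BSA. limma-voom with library quality weights, which gave CX3CL1 replicate 1 a weight of 0.0249 and the others 0.813 to 1.95, called 21 nuclear and 7 mitochondrial members lower in CCL26 than in BSA. Values that follow come from edgeR on the 8 libraries unless the 9 are named.

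After CCL26, the mitochondrial ribosomal RNAs and most mitochondrial mRNAs were lower than with BSA, and so were some of the nuclear subunits. In the fit of 8 libraries, 9 of 15 mitochondrially encoded members fell and 0 rose against BSA, and 19 of 79 nuclear members fell and 1 rose, where 9.26% of all tested genes fell and 9.74% rose. Called shares were larger among abundant genes. Of genes that were not members, 16.2% fell and 14.2% rose at a mean of 20 CPM or more. At a mean of 100 CPM or more, 31.5% of them fell and 14.1% rose. The median log2 fold change was -0.23 over the mitochondrially encoded members, -0.13 over the nuclear ones and 0.01 over all tested genes. Without CCL26 replicate 2 as well, the nuclear median was -0.082. Against CX3CL1, 12 of 15 mitochondrially encoded members fell and 8 of 79 nuclear ones fell and 1 rose, where 4.64% of all tested genes fell and 5.47% rose. Of genes that were not members, 16.2% fell and 9.88% rose against CX3CL1 at a mean of 100 CPM or more. CX3CL1 against BSA called 1 member, mt-Rnr2, where 0.31% of all tested genes fell and 0.0227% rose. The 3 comparisons share libraries and are not independent. Leaving out a further library gave 7 to 10 mitochondrial members lower against BSA and 9 to 12 against CX3CL1. For nuclear members the count against BSA was 12 without BSA replicate 2 and 28 without CCL26 replicate 3. Against CX3CL1 it was 1 without CX3CL1 replicate 2, 4 without CCL26 replicate 1 and 16 without CCL26 replicate 3.

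The ribosomal RNAs of the mitochondrion changed most among the mitochondrially encoded members that passed. Together they held only 0.0514% to 0.0863% of counts in the 8 libraries, against 0.538% to 0.714% for mt-Co1 alone. How the preparation selected or depleted RNA is not given here. The part of such selection in these counts, and in their ratio to mRNA counts below, was not tested. mt-Rnr1, the RNA of the small mitochondrial ribosomal subunit (chrM:70-1024, plus strand), was at 350.5, 366.1 and 358.2 CPM in BSA replicates 1 to 3. It was at 312.2 and 301.1 CPM in CX3CL1 replicates 2 and 3, at 559.5 CPM in CX3CL1 replicate 1, and at 239.3, 239.9 and 211.9 CPM in CCL26. The CCL26 libraries lay below every other library, and the 2 CX3CL1 libraries lay between those of CCL26 and BSA. The log2 fold change of CCL26 against BSA was -0.63 (SE 0.046, edgeR adjusted p = 1.91e-10), a fall of 35.5%, and against CX3CL1 it was -0.41 (SE 0.051, adjusted p = 3.09e-06).

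mt-Rnr2, the RNA of the large subunit (chrM:1094-2675, plus strand), showed the same order. Its level was 480.5, 496.2 and 493.3 CPM in BSA, 414.3 and 417.4 CPM in CX3CL1 replicates 2 and 3, and 307.1, 329.5 and 278.9 CPM in CCL26, with 730.4 CPM in CX3CL1 replicate 1. Without that library the 3 groups did not overlap. CCL26 against BSA gave a log2 fold change of -0.68 (SE 0.046, edgeR adjusted p = 4.32e-11) and CCL26 against CX3CL1 -0.44 (SE 0.051, adjusted p = 7.02e-07). CX3CL1 against BSA gave -0.24 (SE 0.051, adjusted p = 0.0409) for mt-Rnr2 and -0.22 (SE 0.051, adjusted p = 0.0567) for mt-Rnr1. The call of mt-Rnr2 was kept in 2 of the 8 fits that left out a further library (CCL26 replicate 2 or 3). With all 9 libraries the CX3CL1 values were 0.09 and 0.13 instead (adjusted p = 0.855 and 0.803), so the direction against BSA turned with that 1 library. The CCL26 values were hardly moved by it, at -0.68 and -0.64, but their adjusted p were then 0.467 and 0.574.

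Counts of the 2 ribosomal RNAs per 100 counts of the 12 mitochondrial mRNAs separated the groups. They were 7.66, 7.94 and 8.01 in BSA, 6.73 and 6.61 in CX3CL1 replicates 2 and 3, and 5.91, 5.98 and 6.01 in CCL26. Counts of the ribosomal RNAs were thus lower in CCL26 also relative to those of the mRNAs of the same genome. CX3CL1 replicate 1 had 21.95. The mRNA side of the ratio is mostly 1 gene: mt-Co1 held 62.3% to 65.7% of these mRNA counts in the 8 libraries. In CX3CL1 replicate 1 it held 46.9%. With 3 libraries against 3, an exact permutation test of such a ratio cannot go below 0.10, and none was made.

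**Figure D2:**
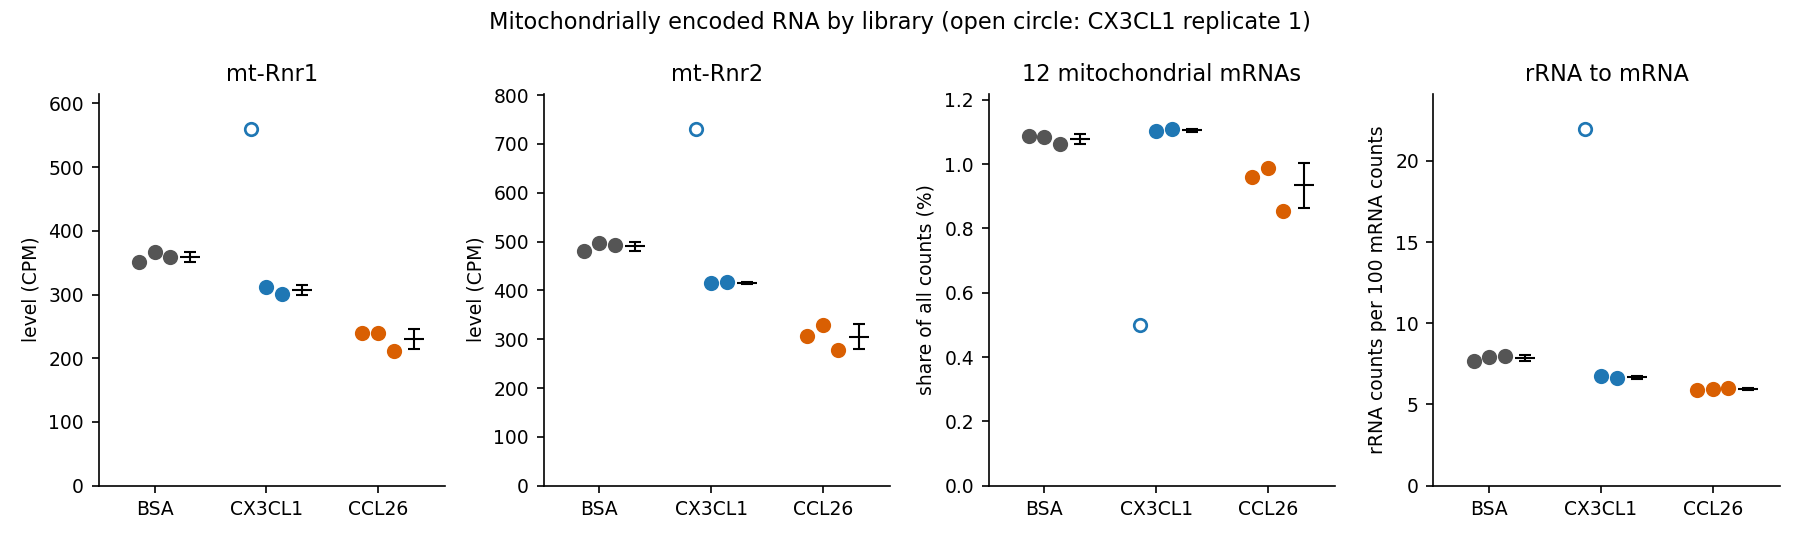
Mitochondrially encoded RNA by library: levels of mt-Rnr1 and mt-Rnr2 (CPM), the 12 mitochondrial mRNAs as a percentage of all counts, and ribosomal RNA counts per 100 mRNA counts. Each point is a library, the open circle is CX3CL1 replicate 1, and bars give the mean and SD of the filled points. In all 4 panels the 3 CCL26 libraries lie below the BSA libraries.

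The mitochondrial mRNAs as a whole held 1.09%, 1.09% and 1.06% of all counts in BSA, 1.10% and 1.11% in CX3CL1 replicates 2 and 3, and 0.960%, 0.987% and 0.855% in CCL26. CX3CL1 replicate 1 held 0.499%. Of the 12 mRNAs, 7 fell in CCL26 against BSA and 10 fell against CX3CL1. Among the 6 covered by less than 50% by near-identical copies, 5 fell against BSA and 6 against CX3CL1.

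mt-Co1, the most abundant member, was at 7129, 7068 and 6872 CPM in BSA, 6726 and 6882 CPM in CX3CL1 replicates 2 and 3, and 5887, 6073 and 5137 CPM in CCL26. Every CCL26 library was below every library of the other groups except CX3CL1 replicate 1, at 2756 CPM. The log2 fold change was -0.30 against BSA (SE 0.036, edgeR adjusted p = 8.26e-07) and -0.25 against CX3CL1 (SE 0.040, adjusted p = 7.68e-05). With all 9 libraries the second value was 0.06 (adjusted p = 0.914), and that of mt-Nd5, at -0.24 without CX3CL1 replicate 1, was 0.05 (adjusted p = 0.922).

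mt-Cytb was at 1016, 1049 and 1034 CPM in BSA, 1109 and 1085 CPM in CX3CL1 replicates 2 and 3, and 916, 930.3 and 746 CPM in CCL26. In CX3CL1 replicate 1 it was at 648.7 CPM, below every other library. Without that library the groups did not overlap, with CX3CL1 highest and CCL26 lowest. CCL26 gave -0.25 against BSA (SE 0.051, edgeR adjusted p = 6.52e-04) and -0.34 against CX3CL1 (SE 0.056, adjusted p = 1.43e-04). With all 9 libraries CX3CL1 against BSA was at -0.12. CCL26 replicate 3 was the lowest of the group for mt-Cytb as for mt-Co1. The core subunits of complex I encoded in the mitochondrion fell against BSA by 0.23 (mt-Nd1), 0.16 (mt-Nd2), 0.15 (mt-Nd4) and 0.14 (mt-Nd5) on the log2 scale, with edgeR adjusted p from 2.64e-05 to 0.0173. Against CX3CL1 these 4 fell by 0.32, 0.30, 0.24 and 0.24.

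mt-Nd6 was at 107, 125 and 127 CPM in BSA and at 112, 118 and 99.0 CPM in CCL26, ranges that overlapped (log2 fold change -0.12, edgeR adjusted p = 0.26). In CX3CL1 replicates 2 and 3 it was at 144 and 129.7 CPM, and CCL26 was lower than these (log2 fold change -0.31, adjusted p = 0.00826). Of the fully copied mRNAs, mt-Co2 gave -0.24 against BSA (adjusted p = 0.0112), mt-Co3 -0.18 (adjusted p = 0.0588) and mt-Atp6 -0.28 (adjusted p = 0.0608). Of 7 nuclear copies of mitochondrial genes that were tested, Gm29216 and Gm28661 fell against BSA (-0.48 and -0.39, adjusted p = 0.00453 and 0.00726) and the others did not pass, with the highest at 0.37 (Gm13340). mt-Nd3 and mt-Nd4l were at most at 4.17 CPM in any library and did not pass (log2 fold changes 0.25 and -0.51, adjusted p = 0.822 and 0.431). The proline transfer RNA mt-Tp was at 34.8 to 39.2 CPM in BSA and 31.9 to 33.6 CPM in CCL26 and, though the groups did not overlap, did not pass (log2 fold change -0.16, adjusted p = 0.215).

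Between CX3CL1 and BSA no mitochondrial mRNA passed the test. Of the 15 mitochondrially encoded members, 8 lay higher in both CX3CL1 libraries than in all BSA libraries and 2, the ribosomal RNAs, lay lower, where 12.6% and 13.2% of all tested genes did so. The median log2 fold change of the 12 mRNAs was 0.11, and the lowest was -0.05 (mt-Co1). Of the 6 mRNAs covered by less than 50%, the highest value was that of mt-Nd6 at 0.19 (SE 0.077, edgeR adjusted p = 0.547).

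Among the nuclear subunits, those of complexes IV and V held 15 of the 19 that fell with CCL26 against BSA. Complex V had 9 of 17 lower, complex IV 6 of 14, complex I 2 of 36, complex III 1 of 8, and complex II 1 lower and 1 higher of 4. Median log2 fold changes were -0.17, -0.21, -0.08, -0.09 and -0.10 in that order. Of all tested genes 9.26% fell and 9.74% rose. Of genes that were not members, with a mean of 100 CPM or more, 31.5% fell and 14.1% rose. Groups did not overlap for 28 nuclear members lower and 3 higher in CCL26 than in BSA, where 16.3% and 16.4% of all tested genes did so, and for 25 lower and 3 higher than in CX3CL1, where 18.5% and 18.4% did so. The difference between complexes was not tested.

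**Figure D3:**
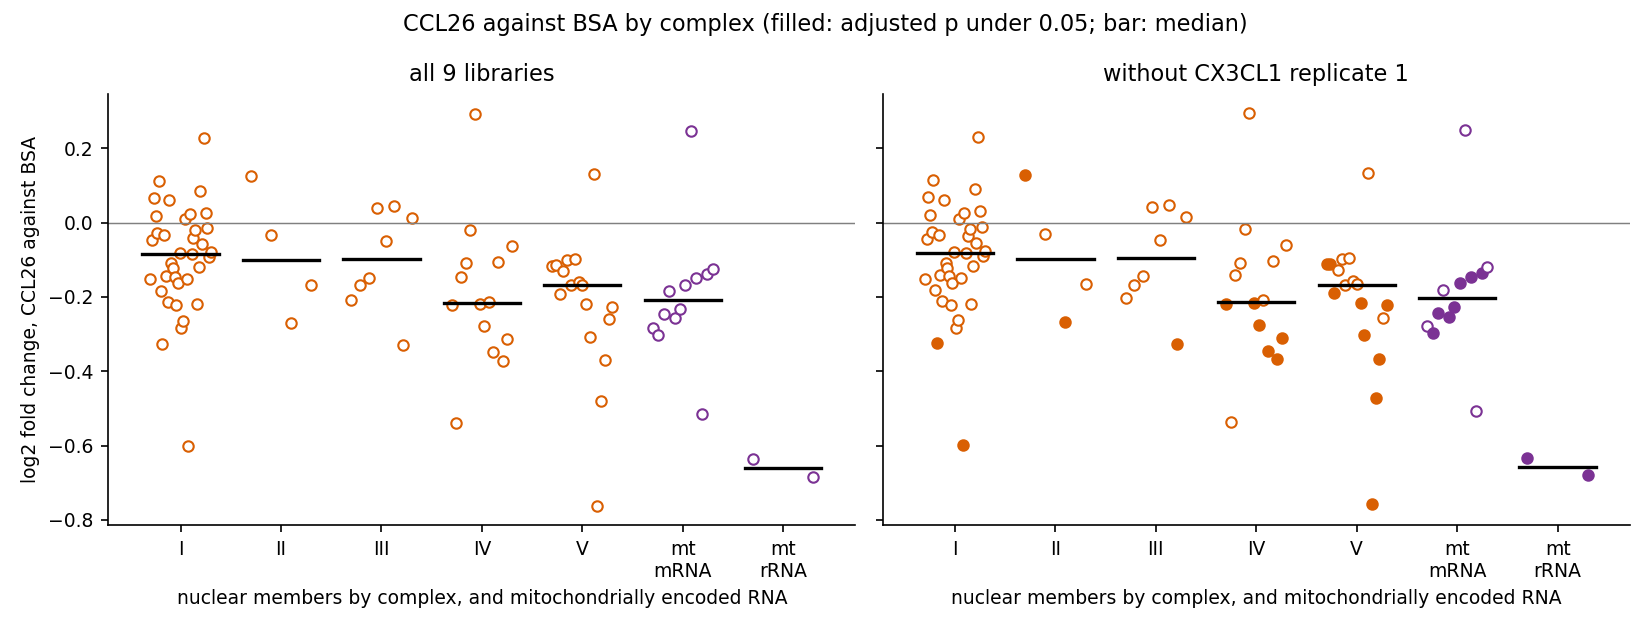
Log2 fold change of CCL26 against BSA for each member, by complex, in the fit of all 9 libraries (left) and without CX3CL1 replicate 1 (right). Filled points have an adjusted p under 0.05 and bars are medians. The values are nearly the same in both panels, while 0 members pass on the left and 29 on the right, 1 of them (Sdha) above 0.

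How the share of nuclear members that fell compared with other genes depended on the length and level at which they were set side by side. Of the 50 nuclear members with a transcript under 1 kb, 13 fell (26.0%) and 0 rose, against 107 lower (8.12%) and 32 higher of 1318 other genes of that length. When a mean of 20 CPM was required as well, 29.7% of 37 nuclear members fell, and 29.3% of 290 other genes did. At a mean of 100 CPM or more the shares were 28.6% of 7 and 56.1% of 98. Median log2 fold changes at 20 CPM were -0.14 and -0.13. By transcript length, the median of all genes rose from -0.09 under 1 kb through -0.02 and 0.01 to 0.05 at 4 kb or more. Markers of macrophages also moved with the group: 11 of 16 fell in CCL26 against BSA and 9 of 16 against CX3CL1, 0 rose, and their sum was 28870 to 29200 CPM in CCL26, against 33090 to 33900 CPM in CX3CL1 replicates 2 and 3. Of all tested genes 9.26% fell against BSA and 4.64% against CX3CL1. Of all genes that were not members, with a mean of 100 CPM or more, 31.5% and 16.2% fell. Fewer cells of a type and less RNA per cell cannot be told apart in bulk RNA, and the part of either in these values was not tested.

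In complex I, which takes electrons from NADH, the members with the smallest p were Ndufa4, Ndufb9 and Ndufb5. Ndufa4 was at 71.9, 67.9 and 69.0 CPM in BSA, 67.4 and 65.6 CPM in CX3CL1 replicates 2 and 3, and 53.9, 56.7 and 55.9 CPM in CCL26. CCL26 lay below both other groups (log2 fold change -0.32 against BSA, SE 0.066, edgeR adjusted p = 8.11e-04, and -0.26 against CX3CL1, adjusted p = 0.0232). Ndufb9, an accessory subunit of the membrane arm, was at 11.2, 13.5 and 10.6 CPM in BSA and 7.85, 8.26 and 7.17 CPM in CCL26 (log2 fold change -0.60, SE 0.151, adjusted p = 0.00559), with 28.7% of its transcript shared with the gene model Gm49356. Ndufb5 overlapped between the groups and missed the threshold (-0.28, adjusted p = 0.0501). Ndufa9 was at 54.2 and 57.0 CPM in CX3CL1 replicates 2 and 3, below the 60.02 to 66.5 CPM of BSA, and did not pass (log2 fold change -0.19, adjusted p = 0.602).

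Complex II, succinate dehydrogenase, had 1 member called in each direction for CCL26 against BSA. Sdha, the flavoprotein that oxidises succinate, was at 260.6, 248.8 and 235.5 CPM in BSA, 250.4 and 260.8 CPM in CX3CL1 replicates 2 and 3, and 263.8, 269.1 and 279.9 CPM in CCL26. CCL26 lay above every other library by a small margin (log2 fold change 0.13 against BSA, SE 0.045, edgeR adjusted p = 0.0496, a rise of 9.30%). Sdhc, a membrane anchor, was at 113.5, 101.0 and 112.9 CPM in BSA and 83.1, 94.0 and 94.4 CPM in CCL26, again without overlap (log2 fold change -0.27, SE 0.068, adjusted p = 0.00588). The iron-sulfur subunit Sdhb (-0.03, adjusted p = 0.811) and the other anchor Sdhd (-0.16, adjusted p = 0.0967) overlapped between the groups. The call of Sdha was lost in 7 of the 8 fits that left out a further library, and kept without BSA replicate 1.

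In complex III, which passes electrons to cytochrome c, Uqcrh, the hinge protein that binds it, was the member that fell. It was at 57.5, 61.7 and 63.5 CPM in BSA, 56.6 and 63.1 CPM in CX3CL1 replicates 2 and 3, and 48.0, 45.7 and 51.6 CPM in CCL26. CCL26 was below both groups without overlap (log2 fold change -0.33 against BSA, SE 0.075, edgeR adjusted p = 0.00259, and -0.30 against CX3CL1, adjusted p = 0.0178). Uqcr10 and Uqcr11 overlapped (-0.20 and -0.17, adjusted p = 0.106 and 0.398), and 38.4% of Uqcr11 matches a pseudogene. Uqcrb, of which 62.8% does, and Uqcrq overlapped as well (-0.14 and 0.01, adjusted p = 0.466 and 0.92).

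In complex IV, cytochrome c oxidase, 6 members fell: Cox7b, Cox7a2, Cox4i1, Cox6c, Cox6b1 and Cox7c, all subunits around the mitochondrially encoded core. Reads of Cox7c are uncertain, since 58.3% of its transcript matches another gene. Cox7b was at 82.3, 87.1 and 92.1 CPM in BSA, 85.0 and 75.2 CPM in CX3CL1 replicates 2 and 3, and 68.6, 70.6 and 62.8 CPM in CCL26 (log2 fold change -0.37 against BSA, SE 0.069, edgeR adjusted p = 3.27e-04). Cox7a2 was at 67.4 to 73.6 CPM in BSA, 66.5 and 67.0 CPM in CX3CL1 replicates 2 and 3, and 53.9 to 55.4 CPM in CCL26 (-0.35, adjusted p = 4.40e-04). For both genes the CCL26 libraries were the lowest. Cox4i1, the regulatory subunit that binds nucleotides, was at 282.8, 283.9 and 294.8 CPM in BSA and 239.4, 240.3 and 259.5 CPM in CCL26 (-0.22, SE 0.047, adjusted p = 0.00153). Other members did not pass. Cox6a1 was at 175.4 to 183.2 CPM in BSA and 168.4 to 187.1 CPM in CCL26 (-0.02, adjusted p = 0.861). Cox8a gave -0.06 (adjusted p = 0.574) and Cox7a2l -0.10 (adjusted p = 0.147).

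Cox6a2, the heart and muscle form of subunit VIa, was low in every library and was the nuclear member called higher in CCL26 than in CX3CL1. It was at 5.13, 5.15 and 5.55 CPM in BSA, 2.14 and 3.17 CPM in CX3CL1 replicates 2 and 3, and 6.66, 5.62 and 7.11 CPM in CCL26. The 2 CX3CL1 libraries were the lowest, and CX3CL1 replicate 1 was the highest at 11.46 CPM. The log2 fold change was 1.26 for CCL26 against CX3CL1 (SE 0.244, edgeR adjusted p = 9.26e-04), -0.97 for CX3CL1 against BSA (adjusted p = 0.114) and 0.29 for CCL26 against BSA (adjusted p = 0.358). With all 9 libraries the first value was 0.22 (adjusted p = 0.827). Cox4i2 and Cox7a1 stayed under 2 CPM outside CX3CL1 replicate 1 and did not pass.

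Complex V, the ATP synthase, had 9 members lower, from both the catalytic head and the membrane part. Of the head, Atp5b was at 934.7, 964.9 and 952.5 CPM in BSA and 865.0, 844.2 and 925.5 CPM in CCL26 (log2 fold change -0.11, SE 0.034, edgeR adjusted p = 0.024), and Atp5a1, the alpha subunit, and Atp5c1, the gamma subunit of the central stalk, gave -0.11 and -0.19 (adjusted p = 0.0177 and 0.00651). Of the membrane part, Atp5j2, subunit f, was at 105.9, 107.4 and 107.7 CPM in BSA, 108.1 and 98.9 CPM in CX3CL1 replicates 2 and 3, and 86.8, 88.8 and 83.9 CPM in CCL26. CCL26 lay below both groups (-0.30 against BSA, SE 0.057, adjusted p = 3.70e-04, and -0.26 against CX3CL1, adjusted p = 0.00944).

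Atp5pb, subunit b of the peripheral stalk, was at 226.5, 215.2 and 233.2 CPM in BSA and 198.7, 200.8 and 177.2 CPM in CCL26 (-0.22, edgeR adjusted p = 0.00253). Atp5l, subunit g, had the lowest log2 fold change of the nuclear members at -0.76 (SE 0.193, adjusted p = 0.0062), from 9.23 to 10.9 CPM in BSA to 5.05 to 6.75 CPM in CCL26. Both are uncertain, since 64.6% and 72.2% of their transcripts match processed pseudogenes. Atp5j, coupling factor F6, fell by 0.22 on the log2 scale (edgeR adjusted p = 0.0345). The small subunits Atp5md and Atp5mpl fell by 0.47 and 0.37 (edgeR adjusted p = 0.0188 and 0.0154). Matches to other genes cover 48.1% of the Atp5md transcript, by a processed pseudogene, and 15.3% of that of Atp5j. Atp5e, subunit epsilon, overlapped between the groups (-0.10, adjusted p = 0.467).

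**Figure D4:**
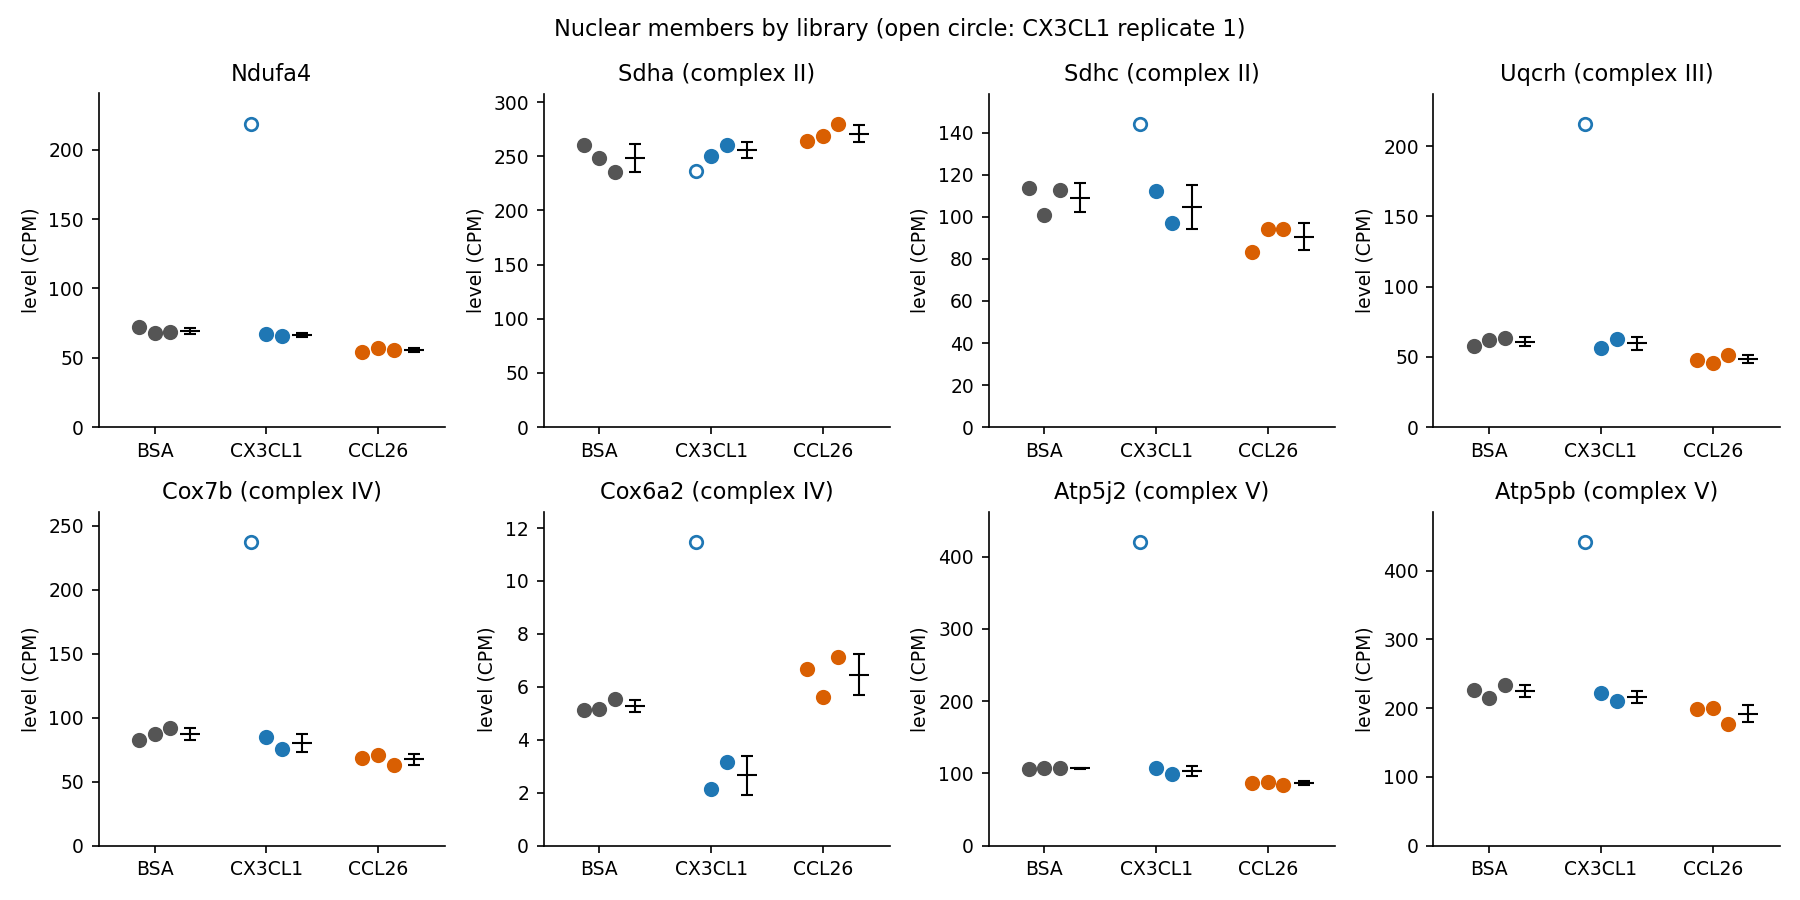
Levels (CPM) of 8 nuclear members by library. Each point is a library, the open circle is CX3CL1 replicate 1, and bars give the mean and SD of the filled points. CCL26 lies below BSA for Ndufa4, Sdhc, Uqcrh, Cox7b, Atp5j2 and Atp5pb and above it for Sdha, while the filled CX3CL1 points of Cox6a2 lie below both.

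Promoter letters known for regulators of the respiratory chain were compared between members that fell and the rest. NRF1, YY1, ETS family factors and estrogen-related receptors (ERR) are such regulators. Promoters from RefSeq (GRCm38.p6, 250 bases before to 50 after the start) matched 65 of 79 nuclear members, with 70 promoters, of 32851 in all. On either strand, GCGC and TGCGC with any 1 base between them (NRF1) were in 25.7% of member promoters and 4.6% of all promoters, CCGGAAG (ETS) in 24.3% and 8.86%, AAGATGGC (YY1) in 14.3% and 2.75%, and AAGGTCA (ERR) in 11.4% and 4.72%. By gene, the NRF1 letters were found for 1 of 13 members that fell with CCL26 and 16 of the other 52, the ETS letters for 5 of 13 and 12 of 52, the YY1 letters for 3 of 13 and 7 of 52, and the ERR letters for 1 of 13 and 7 of 52. These shares were not tested. A match is a description of letters, not a site in use. The stretches shown are those of Cox6a1, which did not pass and has the NRF1 letters, and of Atp5l, which fell and has the ETS letters. Capitals mark the match, which for both reads on the other strand. The Cox6a1 stretch is chr5:115349041-115349100 and the Atp5l stretch chr9:44920921-44920980, both on the minus strand and upstream of the gene as RefSeq and GENCODE M21 place it.
Cox6a1: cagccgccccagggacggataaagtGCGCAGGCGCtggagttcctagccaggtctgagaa
Atp5l: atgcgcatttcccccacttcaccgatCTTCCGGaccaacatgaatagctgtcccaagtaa

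CX3CL1 replicate 1 held more nuclear member counts and fewer mitochondrial mRNA counts than any other library. Nuclear members took 1.42% of its counts, against 0.675% and 0.704% in CX3CL1 replicates 2 and 3, 0.685% to 0.696% in BSA and 0.641% to 0.693% in CCL26. Against the mean of its 2 replicates, the median nuclear member was 2.96-fold higher, 77 of 79 were above it and 64 were more than 2-fold higher, from Uqcrc2 at -0.34 to Ndufa2 at 2.44 on the log2 scale (0.5 CPM added). Sdha, at -0.11, was the other member below the mean of the replicates. The ratio of mitochondrial mRNA counts to nuclear member counts was 0.351 in this library, 1.57 and 1.64 in its replicates, 1.53 to 1.59 in BSA and 1.23 to 1.54 in CCL26. Cox4i1 stood at 1055 CPM there and 265.1 and 295.6 CPM in the replicates, a 3.76-fold difference, and Atp5j2 was 4.04-fold higher.

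The difference followed transcript length in all genes, not in the members alone. The median log2 ratio of all tested genes was 1.08 under 1 kb and 0.64 from 1 to 2 kb. It was -0.10 from 2 to 4 kb and -0.85 at 4 kb or more. The median of the nuclear members in the same order was 1.71 (50 genes), 1.34 (22), 0.31 (5) and 1.14 (2). Lengths are those of 1 GENCODE transcript per gene, the longest among those its annotation ranks best. By this choice the last 2, Ndufb2 and Atp5g1, have 4371 and 4715 bases. Which transcript the cells used was not tested. Spearman's correlation with transcript length was -0.51 across the 79 nuclear members and -0.57 across all tested genes with a known transcript length. All these genes share 1 library and its composition, so no p is given. Among mitochondrial mRNAs, mt-Nd3, mt-Nd6, mt-Co3, mt-Co2 and mt-Atp6, of 348 to 784 bases, were 1.87-fold to 2.68-fold higher in this library. mt-Co1 and mt-Nd5, of 1545 and 1824 bases, were at 0.405 and 0.445 of the level in its replicates. Against this order, mt-Nd4l of 297 bases had 0 counts here, with 1.52 and 3.36 CPM in the replicates, and mt-Rnr2 of 1582 bases was 1.75-fold higher.

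**Figure D5:**
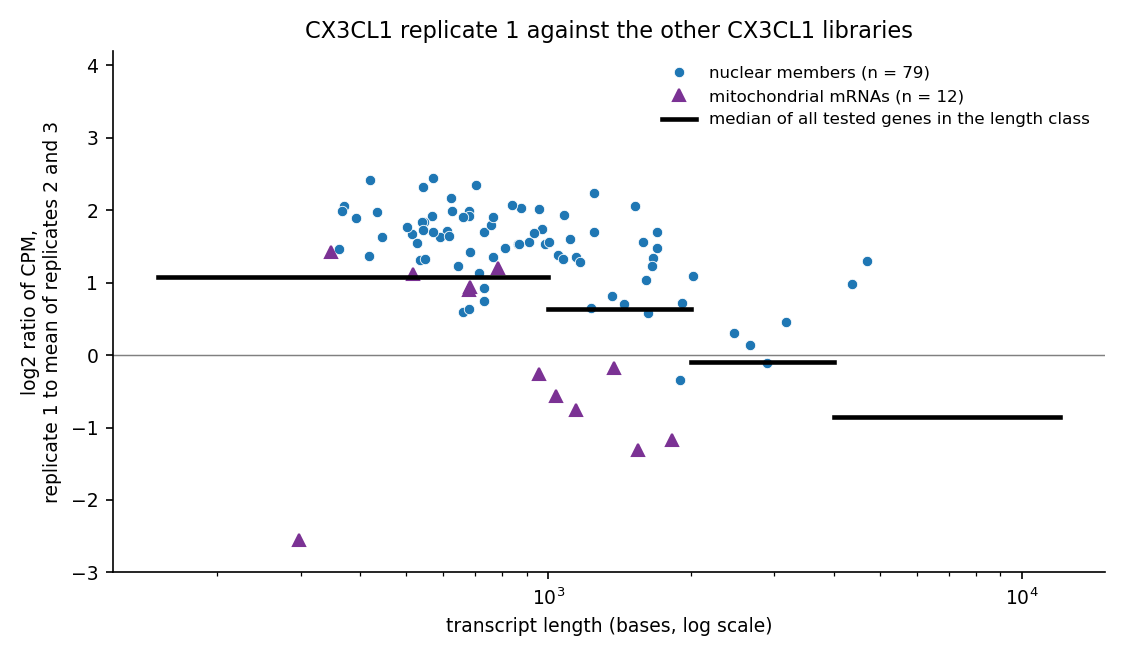
Log2 ratio of CPM in CX3CL1 replicate 1 to the mean of CX3CL1 replicates 2 and 3 (0.5 CPM added) against transcript length in bases (log scale), for 79 nuclear members and 12 mitochondrial mRNAs. Black bars are medians of all tested genes in 4 length classes. The bars fall from 1.08 to -0.85 with length, and most nuclear members lie above the bar of their class.

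With this library left in, the median nuclear member was 0.71 higher on the log2 scale in CX3CL1 than in BSA and 0.85 lower in CCL26 than in CX3CL1, with 78 and 76 of 79 members on that side and 0 called by edgeR. Without it the medians were -0.03 and -0.11, with 51 and 62 of 79 below 0. The higher median in CX3CL1 thus rested on that library. Without it 0 of 79 nuclear members were called in CX3CL1 against BSA, where 0.332% of all tested genes were (3 nuclear members at an unadjusted p under 0.05, all lower).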

How the data were processed

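RNA of 9 macrophage samples was isolated with the RNeasy kit, made into libraries with NEBNext Ultra II and read as 150 bp pairs on a NovaSeq, per the labels' protocols. The deposited values are read counts per gene, made by the authors with STAR and featureCounts on GRCm38 per the submitters' processing notes, with no versions given there. Of 13593 rows, 1343 had no symbol, and GENCODE M21 named 1333 of these by identifier. Counts were filtered with filterByExpr, scaled by TMM and tested with edgeR 4.0.16 (quasi-likelihood, 1 model of 3 groups, R 4.3.3), with Benjamini-Hochberg adjustment over all tested genes and a threshold of 0.05. The fit of all 9 libraries was the planned one and the fit without CX3CL1 replicate 1 its first alternative; DESeq2 1.42.0 and limma 3.58.1 gave others. The edgeR script was tested on simulated data. CPM are counts scaled with TMM library sizes. Near-identical transcripts were searched with blastn 2.17.0.

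Named were all mitochondrially encoded members, all Sdh genes, the tissue isoforms, the highest member per kilobase of each complex, and of complexes I, III, IV and V the 3 nuclear members with the smallest p for CCL26 against BSA and the 2 for CX3CL1 against BSA. Other members that passed are named by symbol, chosen after their values were seen. The members, gene lists and tests were chosen with earlier results of these data known. Replicate numbers are not stated to pair the libraries, and the main fits did not pair them.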

Additional observations from a re-analysis of the deposited data

How the results depend on the processing

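With all 9 libraries, edgeR called 0 members, and so did DESeq2, limma-voom, DESeq2 size factors, no filter, scaling without mitochondrial genes and thresholds of 0.01 and 0.1. Fits that left out 1 library, alone or together with CX3CL1 replicate 1, called 0 to 28 nuclear members lower and 0 to 1 higher for CCL26 against BSA, 0 to 16 lower and 0 to 1 higher for CCL26 against CX3CL1, and 0 to 1 lower for CX3CL1 against BSA. For mitochondrial members the ranges were 0 to 10 lower, 0 to 12 lower, and 0 to 2 lower with 0 to 3 higher. Among these fits, those that kept CX3CL1 replicate 1 called 0 members. Over all these fits, with and without CX3CL1 replicate 1, median log2 fold changes ran from -0.16 to -0.082 (CCL26 against BSA), from -0.065 to 0.98 (CX3CL1 against BSA) and from -1.11 to -0.061 (CCL26 against CX3CL1) for nuclear members, and from -0.26 to -0.16 (CCL26 against BSA) and from -0.36 to -0.18 (CCL26 against CX3CL1) for mitochondrial members. With only the 6 libraries of CCL26 and BSA, 21 nuclear and 9 mitochondrial members fell. Library quality weights gave 21 and 7 lower against BSA, 6 nuclear lower, 1 higher and 12 mitochondrial lower against CX3CL1, and nuclear medians of -0.019 (CX3CL1 against BSA) and -0.15 (CCL26 against CX3CL1). Scaling without mitochondrial genes and without CX3CL1 replicate 1 gave 20 and 9 lower against BSA, 8 nuclear lower, 1 higher and 12 mitochondrial lower against CX3CL1, 1 mitochondrial member lower in CX3CL1 than in BSA, and nuclear medians of -0.026 and -0.11.

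Against CX3CL1, mt-Co1 and mt-Nd5 were at 0.06 and 0.05 with all libraries and at -0.25 and -0.24 without CX3CL1 replicate 1, both passing the test there. Leaving out 1 library, alone or together with that one, gave -0.30 to 0.27 for mt-Co1 and -0.27 to 0.23 for mt-Nd5, below 0 in every fit without CX3CL1 replicate 1 and above 0 in every fit with it. Quality weights gave -0.22 for both, and scaling without mitochondrial genes and without that library -0.25 and -0.24. For CX3CL1 against BSA, the same fits ran from -0.25 to 0.22 for mt-Rnr2 (-0.24 without CX3CL1 replicate 1, with or without mitochondrial genes in the scaling), from -0.25 to 0.28 for mt-Rnr1, from -1.30 to 0.45 for Cox6a2, from -0.25 to 0.10 for mt-Cytb, from -0.14 to 0.16 for mt-Nd2 and from -0.37 to 0.11 for mt-Nd5. The last 5 passed the test with a sign opposite to that of all 9 libraries only when CX3CL1 replicate 1 and CCL26 replicate 3 were both left out (-0.22, -0.97, 0.09, 0.13 and 0.10). The cause was not tested.

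Replicate numbers gave little sign of pairing: with all 9 libraries, same-numbered libraries had deviations correlated from -0.129 to 0.098. Without CX3CL1 replicate 1 these correlations ran from 1.06e-05 to 0.0409, and those of differently numbered libraries from -0.042 to 0.0184. With the number as a replicate block, 0 members were called in all 9 libraries. The replicate block without CX3CL1 replicate 1 called 20 nuclear and 10 mitochondrial members lower in CCL26 than in BSA, and 7 nuclear lower, 1 higher and 12 mitochondrial lower against CX3CL1. Its nuclear medians were -0.031 (CX3CL1 against BSA) and -0.086 (CCL26 against CX3CL1), and mt-Co1 and mt-Nd5 were at -0.27 and -0.25 against CX3CL1. Members near 1 CPM (Cox4i2, Cox7a1, mt-Nd3 and mt-Nd4l) had standard errors of 0.39 to 0.63 on the log2 scale for CCL26 against BSA. A change has to be well above its standard error to pass, so changes of that size, and somewhat larger ones, were not detectable at this depth.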

Other observations

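Other mitochondrial genes, from lists chosen with earlier results of these data known, moved in both directions with CCL26 against BSA in the fit without CX3CL1 replicate 1, where 9.26% of all tested genes fell and 9.74% rose. Of 18 mitochondrial carriers, import and uncoupling proteins, 7 fell and 0 rose (median log2 fold change -0.15). Slc25a3, which carries phosphate to the ATP synthase, was at 518 to 523 CPM in BSA, 495.2 and 503.5 CPM in CX3CL1 replicates 2 and 3, and 437 to 446 CPM in CCL26 (-0.24, SE 0.035, edgeR adjusted p = 1.66e-05). The import receptor Tomm20 gave -0.28 and the ADP/ATP carrier Slc25a5 -0.21, both without overlap between CCL26 and BSA. Of 26 citric acid cycle and pyruvate dehydrogenase genes 5 fell and 0 rose (median -0.07), among them Mdh1 (-0.27), Cs, the citrate synthase (-0.19), and Pdk1, a kinase of pyruvate dehydrogenase (-0.27).

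Of 50 assembly factors of the complexes 3 rose (6.0%) and 0 fell (median 0.02), where 9.74% of all tested genes rose and 9.26% fell. The 3 were Acad9 (0.46), Atpaf1 (0.52) and Ndufaf1 (0.51), with edgeR adjusted p of 0.0333, 0.0427 and 0.0474. Ndufaf1, which helps to build complex I, was at 5.76 to 6.51 CPM in BSA and 7.22 to 10.1 CPM in CCL26. Of 21 electron carriers and subunits that the name patterns do not cover, 1 rose (4.76%) and 2 fell (9.52%), shares not above those of all tested genes by more than a little. Atpif1, the inhibitor of the ATP synthase, was at 34.9 to 43.8 CPM in BSA and 21.1 to 27.9 CPM in CCL26, a lower level in every CCL26 library (-0.70, SE 0.130, adjusted p = 2.87e-04). Coq8a, needed to make coenzyme Q, rose by 0.61 against BSA and by 1.11 against CX3CL1 (adjusted p = 0.00244 and 3.20e-05), and Coq10b fell by 0.46.

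Among 31 genes of mitochondrial transcription and RNA handling, 4 rose (12.9%) and 2 fell (6.45%), with a median of -0.03. Of all tested genes 9.74% rose and 9.26% fell, so these shares were near those of all genes. The elongation factor Tefm was at 0.68 to 1.69 CPM in BSA, 1.85 and 3.34 CPM in CX3CL1 replicates 2 and 3, and 2.83 to 4.51 CPM in CCL26 (log2 fold change 1.37, SE 0.354, edgeR adjusted p = 0.00671), and Fastk gave 0.41 and Fastkd3 -0.29. Of 16 regulators of mitochondrial biogenesis 2 rose (12.5%) and 3 fell (18.8%), with a median of 0.14. Myc was at 24.2 to 28.5 CPM in BSA, 24.8 and 25.4 CPM in CX3CL1 replicates 2 and 3, and 44.1 to 52.1 CPM in CCL26 (0.89, SE 0.093, adjusted p = 1.05e-07). Yy1 was at 243.3 to 266.8 CPM in BSA and 201.1 to 214.5 CPM in CCL26 (-0.31, adjusted p = 1.84e-05), and Sirt1 gave -0.32. CX3CL1 against BSA called 0 genes of these 6 lists in this fit (edgeR).

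Among markers of other cells, 2 of 11 granulocyte genes rose with CCL26 against BSA, S100a9 (0.35) and S100a8 (0.34), and their summed level was 146 to 158 CPM there, against 133 to 151 CPM in CX3CL1 replicates 2 and 3. Of all tested genes 9.74% rose and 9.26% fell with CCL26 against BSA. Dendritic cell markers (5 of 8 in the table) summed to 10.2 to 11.9 CPM in BSA and 8.96 to 9.98 CPM in CCL26, B cell markers (3 of 6, with Cd79b lower at -0.36) to 98.3 to 108.1 CPM in BSA and 97.1 to 104 CPM in CCL26, stromal markers (4 of 9) to 0.821 to 2.35 CPM in BSA, and the 1 T cell gene in the table (Cd4, of 8) to at most 1.55 CPM. Their part in the levels of the oxidative phosphorylation genes was not tested.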
